A study of Mus musculus with 2 samples.

Results

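Proglucagon (Gcg) and the PP-fold peptide genes Ppy (pancreatic polypeptide), Pyy (peptide YY) and Npy (neuropeptide Y) were followed in single cells of mouse pancreatic islets. These 4 genes were taken by their symbols from the 31053 genes listed in each matrix. The islets came from C57BL/6J mice aged 13 weeks, and formed 2 libraries. In 1 library the diet label reads CD, which is left unexplained, and in the other HFD, a high-fat diet. No allele, transgene or drug is named for either group, and the labels do not say how many mice were pooled. The study set out to describe alpha, beta and delta cell subpopulations in a diet model of prediabetes. Because each diet has 1 library, differences between diets have no replicate check and were not tested, and intervals cover counting error only.

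Proglucagon is cut by prohormone convertases into glucagon in alpha cells and into glucagon-like peptides in intestinal endocrine cells and some neurons. The PP-fold peptides share a hairpin-like fold and an amidated end, and signal through the Y receptors. Pancreatic polypeptide is the product of the PP cell, a rare islet cell; peptide YY is best known from the distal gut and is also made in the islet; neuropeptide Y is a transmitter of sympathetic and other neurons.

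In the GENCODE M21 annotation of GRCm38, the same build as mm10, Gcg lies on the minus strand of chromosome 2 at 62474530 to 62483650, with up to 6 exons. Ppy (chromosome 11, 102099930 to 102101319) and Pyy (chromosome 11, 102106676 to 102107832) are neighbours on the same strand, 5356 bases apart with no annotated gene between them. Npy lies on the plus strand of chromosome 6 at 49822710 to 49829507. No other annotated gene overlapped any of the 4, and their transcripts shared 0 words of 20 bases with each other, so reads of 1 member have no identical stretch of that length in another. The 250 bases before the start of Gcg, Ppy and Pyy are shown because alpha cells, which are defined by Gcg, differed widely in Ppy and Pyy. They come from RefSeq (GRCm38.p6), where all 4 members were matched, and are read 5′ to 3′ on the gene's own strand. Capitals mark TATAA on that strand. The windows are chr2:62483654-62483903 for Gcg, chr11:102101320-102101569 for Ppy and chr11:102107833-102108082 for Pyy, each on the minus strand.
Gcg: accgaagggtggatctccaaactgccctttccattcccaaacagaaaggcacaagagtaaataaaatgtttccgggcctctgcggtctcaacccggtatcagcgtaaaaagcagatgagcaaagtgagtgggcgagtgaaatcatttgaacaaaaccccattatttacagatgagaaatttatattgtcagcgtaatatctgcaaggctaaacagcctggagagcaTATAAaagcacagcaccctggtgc
Ppy: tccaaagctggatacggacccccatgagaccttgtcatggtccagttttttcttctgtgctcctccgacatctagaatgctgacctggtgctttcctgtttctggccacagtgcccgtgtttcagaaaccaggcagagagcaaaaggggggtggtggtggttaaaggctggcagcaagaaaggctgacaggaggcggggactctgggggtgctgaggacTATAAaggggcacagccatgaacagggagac
Pyy: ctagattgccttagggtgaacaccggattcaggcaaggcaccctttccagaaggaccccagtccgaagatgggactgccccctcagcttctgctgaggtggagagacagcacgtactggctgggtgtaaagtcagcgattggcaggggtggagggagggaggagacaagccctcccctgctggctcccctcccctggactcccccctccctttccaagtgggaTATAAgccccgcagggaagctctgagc
TATAA began 24 bases before the start in Gcg, 31 in Ppy and 27 in Pyy. RefSeq lists another start for Pyy, within the transcript, and the same TATAA lies 83 bases before that one. It was found on the gene's strand between 40 and 16 bases before the start in 3.52% of the 32851 promoter windows listed, and anywhere in the 250 bases on either strand in 22.8%. TAAT, the core letters bound by many homeodomain factors, was searched on both strands, may overlap a TATAA, and occurs in 54.9% of windows. It was found 2 times in Gcg and 0 times in Ppy and Pyy. Such matches describe letters and not bound sites.

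Barcodes with at least 1500 UMIs (unique molecular identifiers, each 1 tagged transcript end), at least 500 genes and at most 15% mitochondrial UMIs were kept as cells, 9667 in CD and 12062 in HFD. The libraries held 265836346 and 271527648 UMIs, and they shared 26 cell barcodes. Classes were set by hormone share of a cell's UMIs: beta by Ins1 and Ins2 at 30% or more, alpha by Gcg at 10%, delta by Sst at 3%, PP by Ppy at 20%, each with the other hormones below their limits. The rule gave 1272 CD and 2005 HFD alpha cells, 6515 and 7433 beta cells, 570 and 662 delta cells, and 328 and 535 PP cells. Median UMIs per cell were lower in HFD, at 9441 and 7668 in alpha, 6442 and 4781 in delta and 15780 and 10985 in PP cells. The alpha class carried the alpha factor gene Irx2 at 96.9 CPM (a gene's UMIs scaled to the total UMIs of the class, where 10000 CPM is 1%, not divided by gene length since each UMI is a transcript end) in CD and 97.1 in HFD, against 1.2 and 1.86 in beta cells. The delta class carried the delta factor gene Hhex at 218 and 228 CPM. The PP class was not set apart by the summed PP marker list, which stood at 782 and 776 CPM there and at 945 and 1077 in delta cells, so this class rests on Ppy itself. Erythroid markers summed to 4.68 CPM in CD and 344 in HFD alpha cells.

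Free RNA, which enters every droplet, was read from barcodes with 10 to 100 UMIs. It held Gcg at 16100 CPM in CD and 15540 in HFD, Ppy at 15530 and 19070, and Pyy at 7070 and 6591. Npy there was 7 UMIs in CD and 3 in HFD. If all insulin UMIs in a non-beta class are counted as free RNA, the free part, an estimate chosen after seeing the data, came to 5.46% and 6.97% of alpha, 9.23% and 11.0% of delta, and 5.50% and 7.51% of PP cells' UMIs. The estimate planned first was the median over foreign genes, which for alpha cells were the insulin genes, Sst and acinar genes. It rested on few genes and gave 20.5% in CD (7 genes) and 7.24% in HFD (3 genes) for alpha cells. Read from barcodes with 100 to 500 UMIs, the same estimate rested on 11 genes in each library and gave 3.37% and 7.82%, the opposite order. By insulin, free RNA would bring 848 CPM of Ppy to CD alpha cells and 1330 CPM to HFD alpha cells. Endothelial-like cells, named from their own markers in a clustering without hormones, gave a measured reference for a cell type not known to make these peptides. Among 346 CD and 546 HFD such cells (median 4446 and 4478 UMIs), Ppy reached 1% of UMIs in 1.16% and 1.47%, and Pyy in 0.289% and 2.75%.

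**Figure D1:**
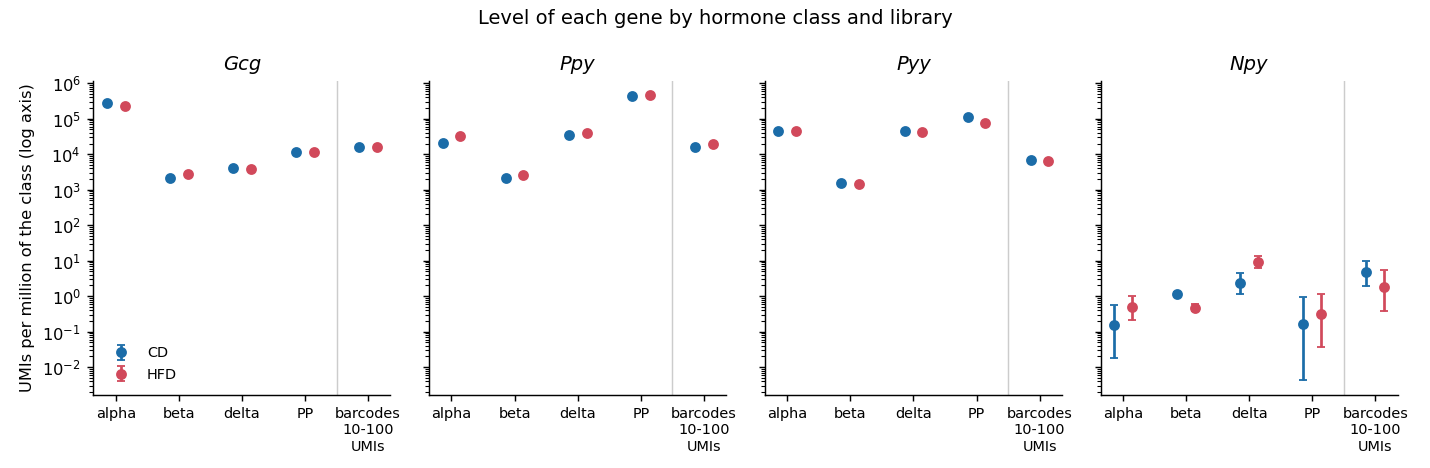
CPM of each gene in the class (log axis) in alpha, beta, delta and PP cells and in barcodes with 10 to 100 UMIs, CD in blue and HFD in red, with exact 95% Poisson intervals that are mostly smaller than the points. Pyy is at 41620 CPM or more in alpha, delta and PP cells of both libraries, and Npy stays below 10.

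Gcg, whose share defines the alpha class, took 272800 CPM of alpha cells in CD (95% Poisson interval 272500 to 273100) and 227800 in HFD (227600 to 228000). The log2 ratio of HFD to CD was -0.26, over class limits that fix part of this value, and no call is drawn from it. The quartiles over cells ran from 229100 to 326500 CPM in CD and from 185500 to 263500 in HFD, which overlap. Around the limit, 43 CD and 90 HFD cells had Gcg between 8% and 10% of UMIs, and 52 and 77 had it between 10% and 12%. The class order of Gcg was alpha, then PP at 11590 and 11270 CPM, then delta at 4046 and 3781, then beta at 2168 and 2765.

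In delta and PP cells the median cell held less Gcg than the class as a whole. The median delta cell held 810 CPM of Gcg in CD and 1310 in HFD, which is 5.03% and 8.43% of the free RNA level, below the 1487 and 1706 CPM that the insulin-based free part would bring. The median PP cell held 636 and 918 CPM. Gcg at 1% or more was found in 53 of 328 CD PP cells (16.2%, exact 95% interval 12.3 to 20.6) and 95 of 535 HFD PP cells (17.8%, 14.6 to 21.3). In delta cells the shares were 2.46% and 2.11%, and among those 14 cells in each library high doublet scores were held by 7.14% in CD and 50% in HFD. High doublet scores were found in 0 of those 53 CD cells and in 2.11% of the 95 HFD cells.

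Ppy, which marks the PP class by rule, took 426800 CPM of PP cells in CD and 456800 in HFD. Between 16% and 20% Ppy, just outside the limit, lay 39 CD and 79 HFD cells, and between 20% and 24%, 38 and 42. In delta cells Ppy stood at 35510 CPM in CD and 39160 in HFD, with cell medians of 28580 and 32790. Ppy reached 1% or more in 74.7% of CD (71.0 to 78.3) and 71.5% of HFD delta cells (67.8 to 74.9), intervals that overlap. Ppy was thus at 184% and 172% of its free RNA level in the median delta cell.

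In alpha cells Ppy was the member with the largest ratio between the libraries among the 3 with 50 or more UMIs. It was followed here after its values had been seen. It stood at 21160 CPM in CD (21080 to 21240) and 31800 in HFD (31720 to 31890), a log2 ratio of 0.59 (0.58 to 0.59) and 1.5-fold. Of the 10105 genes with 50 or more UMIs in alpha cells, 5.42% were at least 1.5-fold higher in HFD and 2.83% at least 1.5-fold lower; 5.36% had a ratio above that of Ppy. The value lay at the 1.5-fold line and fell under it with hormone limits times 1.5 (0.51), with hormone and mitochondrial genes left out of the total (0.56), with free RNA of barcodes of 100 to 500 UMIs subtracted (0.56) and in the hormone-free clusters (0.49). The class rule keeps Ppy below 20% of UMIs in each alpha cell. The median alpha cell held 2111 CPM of Ppy in CD and 8522 in HFD, a 4.04-fold difference. The distribution was wide, and the lower quartile was 811 and 1726 CPM, and the upper quartile 13610 and 38920. Ppy at 1% or more was found in 375 of 1272 CD alpha cells (29.5%, 27.0 to 32.1) and in 962 of 2005 HFD alpha cells (48.0%, 45.8 to 50.2). The difference was 18.5 percentage points (15.1 to 21.8). Thinning each cell to 1500 UMIs gave 29.9% and 48.3%. Taking instead all cells of the alpha-like clusters, which were built without hormone genes, gave 31.8% and 52.3%. Removing the highest doublet scores gave 29.3% and 48.2%. The median mitochondrial share of alpha cells was 2.73% in CD and 4.79% in HFD, and its part in the difference was not tested. The free RNA of HFD also held more Ppy, and its part in the difference was not tested either. Endothelial-like cells, another cell type with fewer UMIs per cell, stayed under 2% by this measure in both libraries. Their median Ppy was nevertheless also higher in HFD, at 867 CPM in CD and 1379 in HFD. Whether the diet, the animals or the preparation of either library accounts for the difference cannot be told apart with 1 library each.

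**Figure D2:**
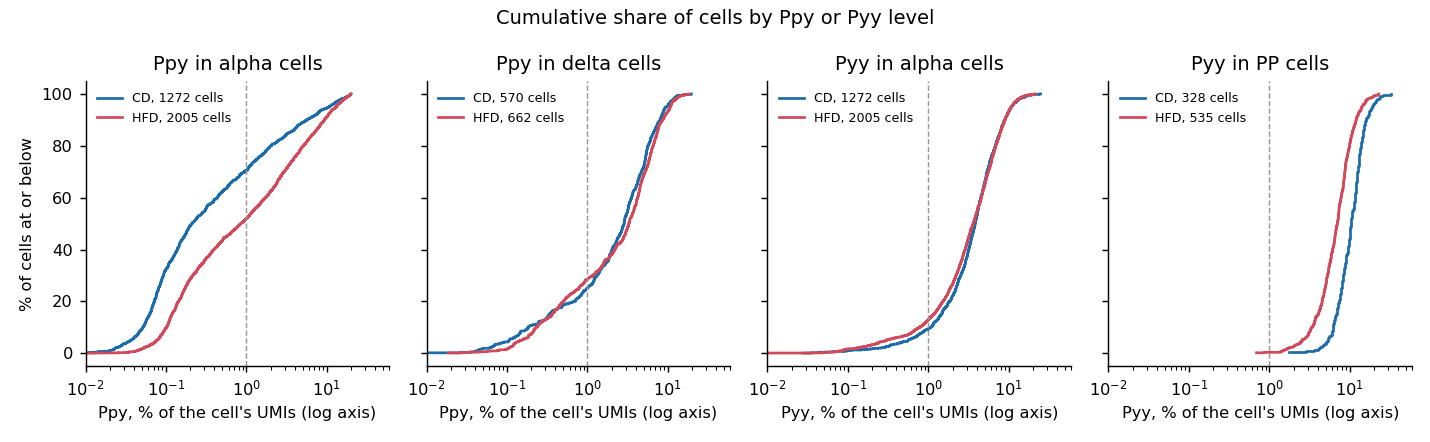
Share of cells at or below each level of Ppy in alpha and delta cells and of Pyy in alpha and PP cells (log axis, percent of the cell's UMIs), CD in blue and HFD in red, with 1% marked by a dashed line. The curves for Ppy in alpha cells are 18.5 percentage points apart at 1%, while those for Ppy in delta and Pyy in alpha cells lie close together.

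Alpha cells were then split by Ppy into cells below 0.5%, from 0.5% to 2% and from 2% to 20% of UMIs. The lowest range held 62.3% of CD and 43.3% of HFD alpha cells, the middle range 17.7% and 19.1%, and the highest 20.1% and 37.6%. Median Pyy was higher in each step, at 29830, 43390 and 69120 CPM in CD and 22160, 37860 and 54490 in HFD. Median Gcg was lower in each step, at 294300, 272700 and 235900 CPM in CD and 244000, 230700 and 205000 in HFD. Ttr (transthyretin, a carrier protein abundant in alpha cells) was lower as well, summed over cells, at 38840, 29050 and 19540 CPM in CD and 56920, 43540 and 25490 in HFD. Gcg and Ttr are shares of a total that includes Ppy, so part of both falls can follow from the split itself. Taken per UMI not on hormone genes, Gcg and Ppy had a Spearman's rho of -0.05 in CD and -0.10 in HFD alpha cells. The alpha factor gene Irx2 was not lower in each step: summed over cells, it lay between 90.8 and 101 CPM over the ranges of both libraries. Tspan8, a tetraspanin gene on the PP marker list, was at 23.6, 69.7 and 112 CPM in CD and 21.6, 35.8 and 72.6 in HFD. The summed PP marker list, Tspan8 included, was at 446.6, 525.2 and 527 CPM in CD and 587.1, 628.5 and 665.5 in HFD. Etv1, also on that list, was at 331.8, 361.9 and 337.3 CPM in CD and 462.1, 494.1 and 495.8 in HFD. Tspan8 is not particular to PP cells: it lay between 389.8 and 510.6 CPM in delta cells over the same ranges. Ttr, Irx2, Tspan8 and Etv1 were picked for this split after values had been seen. High doublet scores were held by 1.33% to 5.50% of cells in any range, and median UMIs were 9111, 9486 and 10613 in CD and 7351, 7546 and 8010 in HFD. In delta cells the same ranges of Ppy showed Pyy medians between 40790 and 42190 CPM in CD and between 37570 and 42110 in HFD, a much smaller spread.

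**Figure D3:**
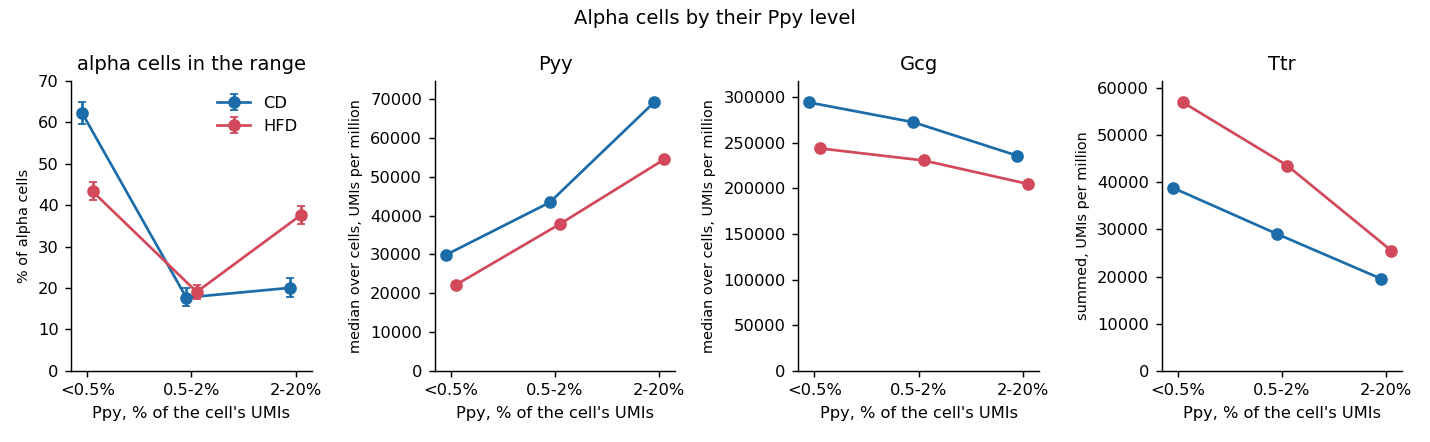
Alpha cells in 3 ranges of Ppy (percent of the cell's UMIs): the share of alpha cells with its exact 95% interval, the median Pyy and Gcg over cells, and the summed Ttr, in CPM apart from the share. Pyy is higher and Gcg and Ttr are lower from the first to the last range in both libraries. All 3 are shares of a total that includes Ppy, so part of the falls can follow from the split.

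Pyy was high in alpha, delta and PP cells and low in beta cells, and no limit used it. In the order of levels, PP cells came first at 108700 CPM in CD and 74890 in HFD. Alpha cells (46290 and 46350) and delta cells (45880 and 41620) were close to each other, with quartiles over CD cells of 22000 to 59810 and 30180 to 55320 CPM, which overlap. Beta cells stood at 1517 and 1407. Pyy reached 1% of UMIs in 90.6% of CD and 87.1% of HFD alpha cells, in 99.1% and 97.6% of delta cells, and in 100% and 99.6% of PP cells.

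Between the libraries, Pyy differed in PP cells. The log2 ratio of HFD to CD was -0.54 (-0.54 to -0.53), or 1.45-fold higher in CD, and the cell medians were 102800 and 69870 CPM. It did not reach 1.5-fold, which 2.73% of the 6923 genes tested did upwards and 5.1% did downwards in PP cells. The quartiles over PP cells ran from 78490 to 130500 CPM in CD and from 49380 to 91300 in HFD, overlapping. In alpha cells the ratio was 0.0019 (-0.0030 to 0.0069), and the sign differed between scalings: -0.028 when hormone and mitochondrial genes were left out of the total and 0.025 with TMM factors. In delta cells it was -0.14 (-0.15 to -0.13), where 4.87% of the 7655 genes tested were 1.5-fold higher and 4.28% lower. Thus in alpha cells 1 of the 3 members with 50 or more UMIs passed 1.5-fold, and in delta and in PP cells 0 of 3 did.

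Alpha cells with more Ppy had more Pyy. Spearman's rho between their shares was 0.49 over 1272 CD and 0.50 over 2005 HFD cells, and 0.53 and 0.54 when both were taken per UMI not on hormone genes. Gcg and Ppy had a rho of -0.26 and -0.34 as shares, which is -0.05 and -0.10 per non-hormone UMI. Shares of 1 cell add up to a fixed total, and cells of a library share its free RNA, so these are descriptions. This was not particular to alpha cells. In beta cells, where median Ppy was 413 CPM in CD and 465 in HFD, Ppy and Pyy had a rho of 0.53 and 0.48 as shares. Per non-hormone UMI it was 0.50 and 0.44 there. In delta cells Ppy and Pyy had a rho of 0.12 and -0.05. In PP cells it was -0.15 and -0.20 as shares, and 0.39 and 0.26 per non-hormone UMI, a change of sign.

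**Figure D4:**
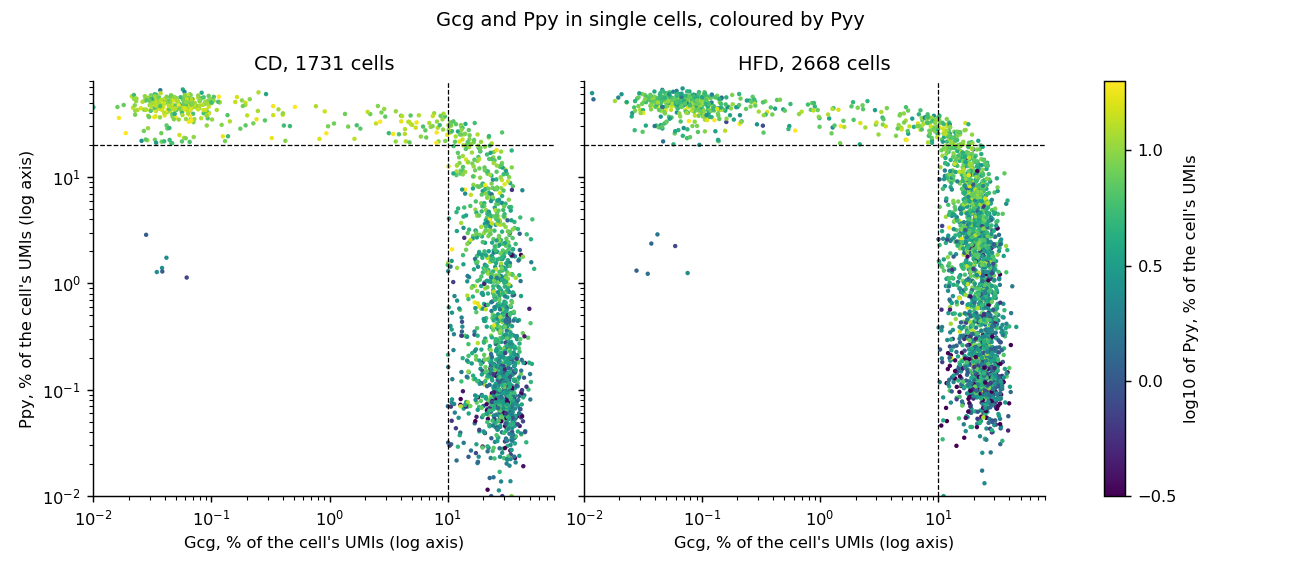
Gcg against Ppy in single alpha, PP and multi-hormone cells with 1% or more of either (both log axes, percent of the cell's UMIs), coloured by Pyy, with the class limits of 10% Gcg and 20% Ppy dashed. Points form a bent band from Gcg-rich cells to Ppy-rich cells in both libraries, with 40 CD and 73 HFD cells past both limits.

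Cells over both the Gcg and the Ppy limits numbered 40 in CD (0.414% of kept cells, 0.296 to 0.563) and 73 in HFD (0.605%, 0.475 to 0.760). The difference was 0.191 percentage points with an interval from -0.007 to 0.386. Their median Gcg was 130900 CPM in CD and 127600 in HFD, their median Ppy 261500 and 253600, and their median Pyy 86640 and 74940. High doublet scores fell on 3 of the 40 and 2 of the 73, and their median UMIs were 15269 and 9697. Of cells over both the Gcg and the insulin limits, 20 of 25 in CD and 8 of 9 in HFD had high doublet scores. For the Gcg and Sst limits the counts were 2 of 39 in CD and 23 of 27 in HFD, for Sst and Ppy 1 of 15 and 1 of 8, and for insulin and Ppy 6 of 6 and 3 of 5.

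Beta cells held Gcg, Ppy and Pyy at low levels, with medians of 377, 413 and 206 CPM in CD and 432, 465 and 176 in HFD. Each median lay between 2.34% and 2.92% of that gene's free RNA level. Beta cells over 1% were a minority: Gcg in 9.24% of CD and 5.30% of HFD beta cells, Ppy in 8.93% and 3.57%, and Pyy in 8.21% and 4.21%. In CD, 407 beta cells formed a separate cluster with a median of 2764 UMIs and trypsin and mitochondrial genes among its leading genes, against 9 such cells in HFD. Without that cluster the shares were 3.34% in CD and 5.31% in HFD for Gcg, 3.01% and 3.57% for Ppy, and 4.54% and 4.20% for Pyy. Of the beta cells with Gcg at 1% or more, 27.7% in CD and 85.3% in HFD had high doublet scores. In CD such beta cells numbered 602, and 204 without that cluster. Of the CD cells in that cluster, 4.42% had high doublet scores, so the CD share includes many low-scoring cells from it. Without high doublet scores, and with that cluster kept, the shares were 7.35% in CD and 0.887% in HFD for Gcg, 8.04% and 1.41% for Ppy, and 6.00% and 1.56% for Pyy. The order of the libraries for Gcg and Ppy thus depended on which cells were left out, and no direction is given for these shares. Among the 13325 genes tested in beta cells, 7.19% were 1.5-fold higher and 6.27% lower in HFD, and 1 of the 4 members, Npy, passed 1.5-fold, on few UMIs given below.

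Npy was close to absent from the hormone classes and was carried by few cells. Kept cells held 818 Npy UMIs in CD and 499 in HFD, in 76 of 9667 and 60 of 12062 cells. A single CD cell with 568 Npy UMIs gave 69.4% of the CD total, and 2 HFD cells with 183 and 161 gave 68.9% of the HFD total. The CD cell also had 377 UMIs of Vip (vasoactive intestinal peptide) and 73 of Tubb3 (a neuronal tubulin), and the HFD cell with 183 had 52 and 134. These genes were looked up after their values were seen. Ins2 took 0.549% and 0.491% of their UMIs, and neither had a high doublet score. The HFD cell with 161 Npy UMIs had 0 of Vip and Tubb3, 6.92% Ins2 and fell in a beta-like cluster.

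In beta cells Npy amounted to 229 UMIs in CD and 95 in HFD, or 1.13 and 0.477 CPM, a log2 ratio of -1.24 (-1.60 to -0.89). The most in 1 beta cell was 25 UMIs in CD and 24 in HFD, and 63 CD and 37 HFD beta cells had any. Delta cells had 10 and 31 UMIs, of which 1 HFD cell had 27, alpha cells 2 and 8, and PP cells 1 and 2. Over all kept cells the log2 ratio was -0.71 (-0.87 to -0.54), and it was 0.35 once the cell with the most Npy was left out of each library. No direction is therefore given for Npy over all kept cells, and the beta cell ratio is a description of these few UMIs.

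**Figure D5:**
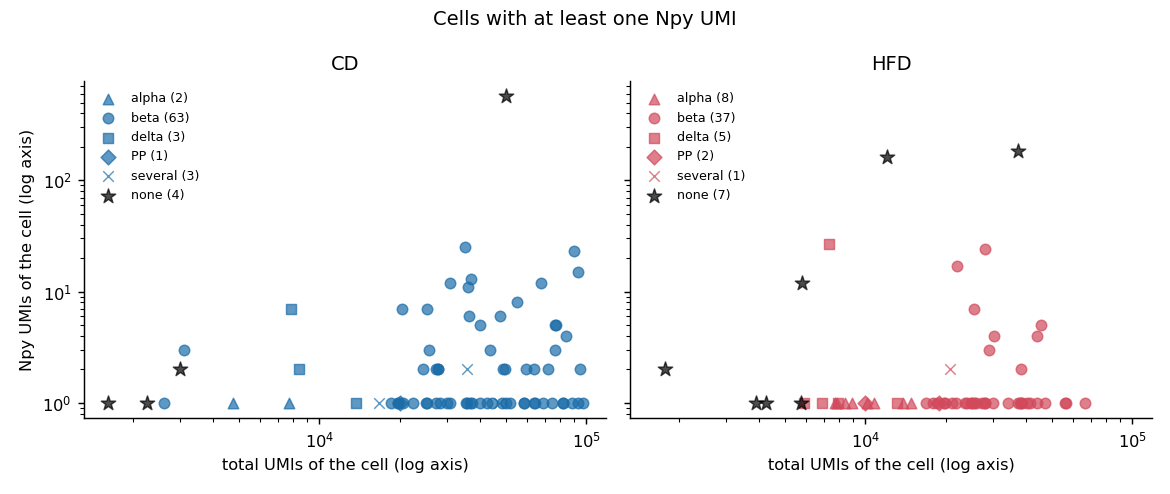
Npy UMIs against total UMIs (both log axes) for each kept cell with at least 1 Npy UMI, with the symbol giving the hormone class and the number of cells in brackets. A cell of no class holds 568 Npy UMIs in CD and 2 such cells hold 183 and 161 in HFD, above all others.

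Genes of the pathway were taken from 4 lists: peptide processing, receptors, peptidases that cut these peptides, and regulators of the proglucagon gene. Of 31 genes, 20 had 50 or more UMIs in alpha cells; 1 was at least 1.5-fold higher in HFD and 0 were lower, beside 5.42% and 2.83% over all genes tested. The median log2 ratio of the list was 0.05, against 0.005 over all genes tested. That gene was Tcf7l2, a Wnt pathway factor, at 15.6 and 23.5 CPM. Pcsk2, the convertase that releases glucagon, stood at 2856 and 3238 CPM, and its partner Scg5 at 1889 and 1451. Pcsk1, the convertase that releases glucagon-like peptide, was at 5.91 and 7.26 CPM in alpha cells. No Y receptor gene reached 50 UMIs in any of the 4 classes. Among the listed receptors only Gipr, the receptor of the incretin GIP, reached 50 UMIs in alpha cells, at 15.4 and 14.0 CPM.

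In beta cells 21 of the 31 genes were tested, 3 were at least 1.5-fold higher in HFD and 0 lower, beside 7.19% higher and 6.27% lower over all genes tested. The median log2 ratio of the list was 0.24, against -0.05 over all genes tested. Those higher were Pam, the enzyme that amidates peptide ends (151 and 234.8 CPM), Irx1 (0.694 and 1.3) and Irx2 (1.2 and 1.86). Irx1 and Irx2 are alpha cell factors, and beta cells over 1% Gcg are counted above. Gcgr, the glucagon receptor, was at 10.8 CPM in CD and 8.42 in HFD (log2 -0.36), Glp1r at 1.71 and 1.16 (-0.57) and Gipr at 39.2 and 28.6 (-0.46), and 0 of these 3 receptors passed 1.5-fold. In delta cells 15 genes were tested with 0 higher and 1 lower. In PP cells 17 were tested and 0 passed 1.5-fold in either direction.

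Genes whose levels ran most like each member were ranked over 38 points, 19 hormone-free clusters in each of the 2 libraries. Clusters share libraries and cell types, so the Pearson correlations of log2(CPM + 10) describe pattern alone. Ppy ran closest to Pyy (r = 0.98), then Smarca1, a chromatin remodeller (0.92), Gpx3, a glutathione peroxidase (0.91), Dbpht2 (0.91) and Kcnk3, a potassium channel gene (0.90). Pyy ran closest to Ppy, then Smarca1 (0.95), Gpx3 (0.95), Dbpht2 (0.94) and Kcnk3 (0.92). Gcg ran closest to Gpx3 (0.93), the kinase gene Wnk3 (0.91), Irx1 (0.90), Dbpht2 (0.90) and Pyy (0.89). Npy ran closest to Fxyd7 (0.99), Vip (0.98), Syngr3 (0.98), Prph (0.98) and Cnr1 (0.98), a pattern that rests on the cluster that holds the cell with the most Npy in each library.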

How the data were processed

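The authors deposited raw counts of UMIs for every barcode, from 10x 3' libraries of islets released with collagenase, picked by hand and dispersed. Cell Ranger 6.0.1 and the build mm10 are named in the submitters' processing notes, whereas the deposited matrices carry, per the file headers, version 3.0.2. The members and lists were chosen with earlier results of these data known. Levels are class sums over class totals (CPM), not divided by length, with exact Poisson intervals; shares have exact (Clopper-Pearson) intervals, and ratios an exact conditional binomial interval, all at 95%. A difference of shares combines both exact intervals. Doublets were not removed; scrublet scores (scanpy 1.11.5) mark the highest 0.8% per 1000 kept barcodes as high. Clustering left out hormone genes (2000 variable genes, 30 components, 15 neighbours, resolution 1), and the rule naming clusters was adjusted after seeing the data. TMM factors came from edgeR 4.0.16. The call of ratios was tested on simulated data. Of gene identifiers, 99.9% matched GENCODE M21. Named were the 4 members, list genes with 50 or more UMIs in a class, and the 5 genes most like each member (200 or more UMIs, clusters of 20 or more cells in both libraries); the values of some list genes are not reported here. Ratios and shares of Ppy in alpha cells, the insulin-based free part, and the cluster-based classes were added after seeing the data.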

Additional observations from a re-analysis of the deposited data

How the results depend on the processing

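All values here are log2 ratios of HFD to CD unless said otherwise. Ppy in alpha cells stayed above 0 in 13 of 13 alternatives: 0.6 with at most 10% mitochondrial UMIs, 0.8 and 0.51 with hormone limits halved and times 1.5, 0.64 without the highest doublet scores, 0.61 with TMM factors, 0.56 without hormone and mitochondrial genes in the total, 0.73 with every cell counted alike, 0.76 and 0.56 after subtracting free RNA (10 to 100 and 100 to 500 UMI profile), and 0.49 in hormone-free clusters. The HFD minus CD difference in the share of alpha cells with 1% or more Ppy stayed between 17.4 and 20.5 percentage points over 7 alternatives. In the same order, Pyy in PP cells was -0.53, -0.56, -0.55, -0.45, -0.49, -0.55, -0.53, -0.55 and -0.58 (limits times 1.5 are left out here and gave -0.53). Ppy in PP cells was 0.11, 0.07, 0.054, 0.086, 0.18, 0.15, 0.053, 0.1, 0.094 and 0.07. Pyy in alpha cells took both signs: 0.0078 with 10% mitochondrial UMIs, 0.025 with limits times 1.5 and with TMM, -0.01 without doublets, -0.028 without hormone and mitochondrial genes, -0.045 with cells counted alike, 0.033 and -0.0052 after subtracting free RNA, and -0.051 in clusters. Pyy in delta cells was -0.13 at 3000 UMIs and with halved limits, -0.2 with limits times 1.5, -0.16 with TMM, -0.094 without hormone and mitochondrial genes, -0.11 and -0.19 after subtraction, and -0.3 in clusters. Gcg in alpha cells stayed between -0.31 and -0.24: -0.26 at 3000 UMIs and after subtracting free RNA by insulin or by the 100 to 500 UMI profile, -0.25 with 10% mitochondrial UMIs and after the 10 to 100 UMI subtraction, -0.29 with halved limits, without hormone and mitochondrial genes and with cells counted alike, -0.24 with limits times 1.5 and TMM, -0.27 without doublets, and -0.31 in clusters. Npy over all kept cells was -1.36 with at most 10% mitochondrial UMIs, 0.21 with every cell counted alike and 0.35 without the top cell of each library; it rests on single cells. Cells over both the Gcg and Ppy limits differed by 1.12 percentage points with halved limits and by 0.00624 with limits times 1.5. With the 10 to 100 UMI profile, subtraction by all foreign genes rested on 7 CD and 3 HFD genes in alpha cells. Its free parts there were 20.5% and 7.24%, so its values carry that difference. With the 100 to 500 UMI profile it rested on 11 genes in each library, with free parts of 3.37% and 7.82%. Subtraction was not run for Npy, which has no class. Leaving out a replicate was not possible with 1 library per diet. No paired analysis was possible because each diet has 1 library and no test was made. Depth limits Npy, with 7 and 3 UMIs in free RNA.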

Other observations

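Barcodes with 100 to 500 UMIs held 34 Npy UMIs in CD and 151 in HFD, a level of 1.97 and 9.05 CPM, set beside 499 Npy UMIs in all kept HFD cells. Macrophage-like cells (153 CD and 226 HFD, of which 8.50% and 20.4% had high doublet scores) held more Gcg than Ppy, with Gcg at 12950 and 9243 CPM and Ppy at 1770 and 2071, against free RNA in which the 2 genes were near each other. These cells were named from a cluster built without hormone genes, and 2.64% of them met the alpha class rule and 13.2% the beta class rule, so a few cells can carry the Gcg sum. The source of these transcripts was not tested.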
